A study of Mus musculus with 8 samples.

Results

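The 10 class I and class II histone deacetylase genes, Hdac1 to Hdac10, were examined for ATAC-seq summits in a list from mouse brown adipose tissue (BAT). A summit, the highest point of an ATAC-seq peak, was taken as belonging to a gene when it lay between the ends of the gene or at most 50 kb from a transcription start site (TSS) of one of its curated RefSeq mRNAs. By this rule 62 of the 31729 autosomal summits, or 0.195%, belonged to the 8 autosomal genes. Hdac6 and Hdac8 lie on the X chromosome, were left out of all totals, and had 1 summit and 0 summits.

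ATAC-seq uses the transposase Tn5 to insert sequencing adapters into DNA that is free of nucleosomes, and was performed on nuclei of BAT. The tissue came from 2 WT mice and 2 Dot1l-BKO mice. WT mice were littermates with floxed Dot1l. Dot1l-BKO mice carried floxed Dot1l and Ucp1-Cre, so that Dot1l, the methyltransferase of histone H3 lysine 79, was deleted in Ucp1+ cells, and other cells of the tissue kept it. Mice of both genotypes were 12 weeks old, were fed chow and spent 4 hr at 4°C before the tissue was taken. The values come from a single list of 32173 summits, named as the WT libraries against the Dot1l-BKO libraries, and it was not stated which of them served as treatment and which as control. Each summit has 1 score, the −log10 of the q-value that the peak caller gave it. There is no value per library, so that read depth is unknown, values carry no replicate error, and the genotypes could not be set against each other. The score is likewise no measure of how open a site was in one genotype. If libraries of one genotype served as the control, a site open in both could be missing, so that absence from the list is not absence of open chromatin.

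Histone deacetylases remove acetyl groups from lysines of histones and other proteins, and mostly act as the catalytic part of corepressor complexes. Class I enzymes are nuclear. Hdac1 and Hdac2 sit in the Sin3, NuRD and CoREST complexes, and Hdac3 is the deacetylase of the NCoR complex. Class IIa enzymes (Hdac4, Hdac5, Hdac7 and Hdac9) bind and repress MEF2 transcription factors in the nucleus, and leave it bound to 14-3-3 proteins once kinases such as the SIK, PKD and CaMK families phosphorylate them. Of class IIb, Hdac6 is a cytoplasmic deacetylase of tubulin and Hdac10 acts on polyamines. The study names Hdac3 and Hdac4 among genes raised by RNA-seq in the BAT of Dot1l-BKO mice. The list was used here to ask where its summits lie around these genes and the rest of their family.

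Marker genes of the tissue, chosen after the data were in hand, are given as a description. Summits within 1 kb of a TSS were present at all 4 brown adipocyte markers, Ucp1 (score 33.7), Cidea (61.5), Prdm16 (8.65) and Ppargc1a (20.8), and at all 3 adipocyte markers, Adipoq (6.02), Pparg (19.1) and Plin1 (23.1). They were also present at endothelial Cdh5 (2.59) and immune Cd68 (2.15), but not at endothelial Pecam1 or immune Ptprc. Over all autosomal genes 46.8% had such a summit, and with so few markers the cell types were not compared. The locus counts were 33 at Prdm16, 21 at Cidea, 15 at Ppargc1a and 12 at Ucp1, then 22 at Plin1, 5 at Adipoq and 3 at Pparg. They were 6 at Pecam1, 3 at Cdh5, 13 at Cd68 and 0 at Ptprc, beside a median of 2 over all autosomal genes. The counts were not adjusted for the length of the locus. Dot1l itself had a promoter summit of score 10.9, which cannot check the deletion because the list has no value per library.

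The sequences below are those under the promoter summits of 4 autosomal members, shown because the first carries the highest promoter score of the family (61.5) and the others lie beneath it at 9.78, 14.04 and 3.32. The Hdac2 summit, second to Hdac4, lies in an exon of a predicted mRNA and is not shown. They are RefSeq sequence of GRCm38, the same build as mm10, read 5′ to 3′ on the minus strand, which is the strand of all 4 genes, and run up to 75 bases to each side of the summit without entering an exon. Capitals mark matches to the motif letters searched on both strands: GGGCGG (SP), CCAAT (NFY) and TAAAAATA (MEF2).
Hdac4 promoter summit, chr1:92180424-92180574: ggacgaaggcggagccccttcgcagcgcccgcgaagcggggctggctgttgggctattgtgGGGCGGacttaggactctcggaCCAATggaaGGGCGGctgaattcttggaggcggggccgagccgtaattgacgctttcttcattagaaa
Hdac5 promoter summit, chr11:102230173-102230297: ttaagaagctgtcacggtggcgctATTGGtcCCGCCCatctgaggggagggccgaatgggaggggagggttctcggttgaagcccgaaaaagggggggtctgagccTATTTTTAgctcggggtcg
Hdac1 promoter summit, chr4:129542850-129543000: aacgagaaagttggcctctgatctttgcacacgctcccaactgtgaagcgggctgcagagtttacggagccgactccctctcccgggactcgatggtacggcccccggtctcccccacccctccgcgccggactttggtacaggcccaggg
Hdac7 promoter summit, chr15:97832645-97832795: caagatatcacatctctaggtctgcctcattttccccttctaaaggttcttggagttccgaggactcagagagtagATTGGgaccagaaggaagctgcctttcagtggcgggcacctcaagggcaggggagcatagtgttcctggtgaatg

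The highest summits inside the bodies of the 4 class IIa genes were shown for the same reason, since most of the family's summits within genes lay there. They are read in the same way, and capitals mark TTGGCA (NFI).
Hdac5 intronic summit, chr11:102218954-102219060: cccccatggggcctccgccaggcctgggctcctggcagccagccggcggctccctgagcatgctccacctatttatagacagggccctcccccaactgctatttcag
Hdac9 intronic summit, chr12:34776290-34776440: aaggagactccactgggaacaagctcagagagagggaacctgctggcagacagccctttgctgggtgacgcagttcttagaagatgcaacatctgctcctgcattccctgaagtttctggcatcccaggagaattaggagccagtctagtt
Hdac4 intronic summit, chr1:92130662-92130812: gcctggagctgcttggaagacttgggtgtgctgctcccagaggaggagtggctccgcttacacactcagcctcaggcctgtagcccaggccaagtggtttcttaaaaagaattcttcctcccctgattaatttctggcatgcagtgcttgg
Hdac7 intronic summit, chr15:97824249-97824399: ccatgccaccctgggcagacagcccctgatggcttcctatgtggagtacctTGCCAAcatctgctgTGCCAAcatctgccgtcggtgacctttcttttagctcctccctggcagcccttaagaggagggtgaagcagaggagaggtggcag

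A promoter summit, meaning one within 1 kb of a TSS, was present at 7 of the 8 autosomal genes, all but Hdac9. Over all 20021 autosomal genes with a curated mRNA, 9371 (46.8%) had one. The share of the members stands above that of all genes, but with 8 genes chosen by name it was not tested. Their scores ran from 3.32 for Hdac7 to 61.5 for Hdac4, with a median of 9.78 beside 10.9 (quartiles 5.68 and 20.9) over all autosomal genes with a promoter summit. With a promoter score of at least 10, 3 of the 8 genes (Hdac1, Hdac2 and Hdac4) remained, beside 24.5% of all autosomal genes. Hdac4 stood highest and Hdac7 lowest, and the other 5 genes lay between the lower and upper quartiles of all genes. The value of Hdac7 moved with the definition, to 5.07 with a promoter of 5 kb on each side and to 7.05 with predicted mRNAs, and stayed the lowest of the 7.

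**Figure D1:**
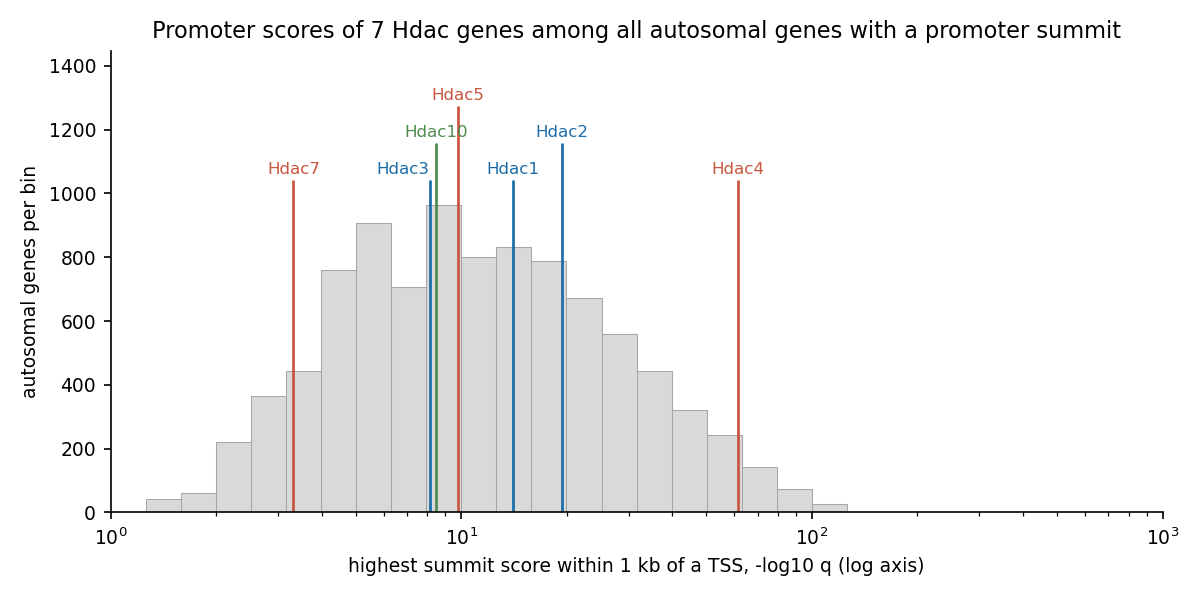
Histogram of the highest summit score within 1 kb of a TSS (−log10 q, log axis) over the 9371 autosomal genes that have one, with 1 gene beyond the right end of the axis, and lines at the 7 Hdac genes coloured by class (class I blue, class IIa red, class IIb green). Hdac4 stands at 61.5 in the right tail, Hdac7 at 3.32 in the left tail, and the other 5 lie between 8.12 and 19.4.

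Among class I genes, the Hdac2 promoter summit scored 19.4. It lay 164 bp upstream of the TSS at chr10:36974544-37001888, on the plus strand, and ranked 3135 among all summits, above 72.0% of autosomal genes with a promoter summit. No other summit was found at the Hdac2 locus. Hdac1, which often occurs beside Hdac2 in the same complexes, had a promoter summit of score 14.04 at 279 bp upstream of its TSS (chr4:129516104-129542646, minus strand), above 59.9% of such genes. The other 2 summits of the Hdac1 locus, of score 8.65 and 4.16, lay 42427 and 14784 bp upstream and were nearer to other genes. Neither Hdac1 nor Hdac2 had a summit in the gene body.

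Hdac3 had a promoter summit of score 8.12, at 195 bp downstream of its TSS in intron 1 (chr18:37936971-37954988, minus strand), above 37.7% of genes with a promoter summit. The TSS of Rell2, which is read in the opposite direction, lay 766 bp from that summit, and the summit cannot be given to one of the genes alone. Of the 7 summits of the Hdac3 locus only this one was nearest to the Hdac3 TSS. The highest of the locus, of score 11.1, lay 97 bp from the TSS of Diaph1 at 19415 bp downstream of the Hdac3 TSS.

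Hdac4 had the highest score of the family. Its promoter summit, of score 61.5, lay 158 bp upstream of the TSS (chr1:91928779-92180341, minus strand), ranked 309 among the 32173 summits and stood above 97.1% of autosomal genes with a promoter summit. The sequence printed for it holds 2 SP matches and 1 NFY match. The other 3 summits of the locus lay in intron 2, at 49604, 80330 and 93293 bp downstream of the TSS, with scores of 10.9, 4.16 and 6.86. All 4 were nearer to the Hdac4 TSS than to that of any other gene. The gene body spans 252 kb and held 3 of them.

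Hdac5 had a promoter summit of score 9.78 at 50 bp upstream of its TSS (chr11:102195747-102230172, minus strand) and another of 2.92 at 590 bp downstream, in intron 1. Unlike Hdac4, its highest summit was not at the promoter. That summit, of score 12.2, lay 11187 bp downstream in an intron. With 8 summits in a gene body of 34.4 kb, Hdac5 held more than 97.6% of the 6886 autosomal genes of 20 to 100 kb, and its density of 23.2 summits per 100 kb was above that of 98.3% of them. Of these 8 summits, 2 had a score of at least 5.

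Hdac7, the class IIa member best known from endothelial cells and thymocytes, had the most summits of the family by the 50-kb rule. None of them had a score of 10 or more. Hdac5 had more in the gene body (8 against 7) and more nearest to its own TSS (9 against 8). Hdac7 held 22 in a locus of 130 kb, more than the loci of 97.4% of autosomal genes, with a highest score of 7.58 and a median of 3.94. Its promoter summit, of score 3.32, lay 953 bp upstream of the second of its 4 TSSs (chr15:97792664-97844502, minus strand), in intron 1 of the longer mRNAs, and stood above 7.61% of genes with a promoter summit. Of the 22, 7 lay in the gene body, more than in 97.0% of genes of 20 to 100 kb, with a highest score of 7.05. This last summit and another of 5.46 lay 553 and 502 bp upstream of starts of predicted Hdac7 mRNAs, which were not counted as TSSs. A further 9 summits were nearest to Slc48a1 and 5 to Rapgef3, whose TSS lay nearest to the highest summit of the locus.

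Hdac9 was the autosomal member with no promoter summit. Its gene body (chr12:34047582-34917095, minus strand) spans 870 kb and held 2 summits, one of score 11.6 in intron 3, 140730 bp downstream of the nearest Hdac9 TSS, and one of 2.15 in intron 27. The density, 0.230 per 100 kb, was above that of 42.8% of the 2207 genes of 100 kb and over. The summit nearest to any Hdac9 TSS lay 130011 bp upstream, outside the window, with a score of 10.9. RefSeq also has 21 predicted Hdac9 mRNA starts, and no summit of the locus lay within 1 kb of one.

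Hdac10, of class IIb, had a promoter summit of score 8.49 at 249 bp downstream of the TSS (chr15:89123303-89128700, minus strand), in the 5′ UTR of exon 1 and above 39.9% of genes with a promoter summit. It was the highest of the 10 summits of the locus and the only one nearest to the Hdac10 TSS. The gene body is 5.40 kb long and held 2 summits. Of the members on X, Hdac6 had a single summit, of score 13.4, which lay 48626 bp downstream of the Hdac6 TSS and 6 bp from that of Pqbp1. Hdac8 had none, and the summit nearest to its TSS lay 55835 bp upstream with a score of 3.05.

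**Figure D2:**
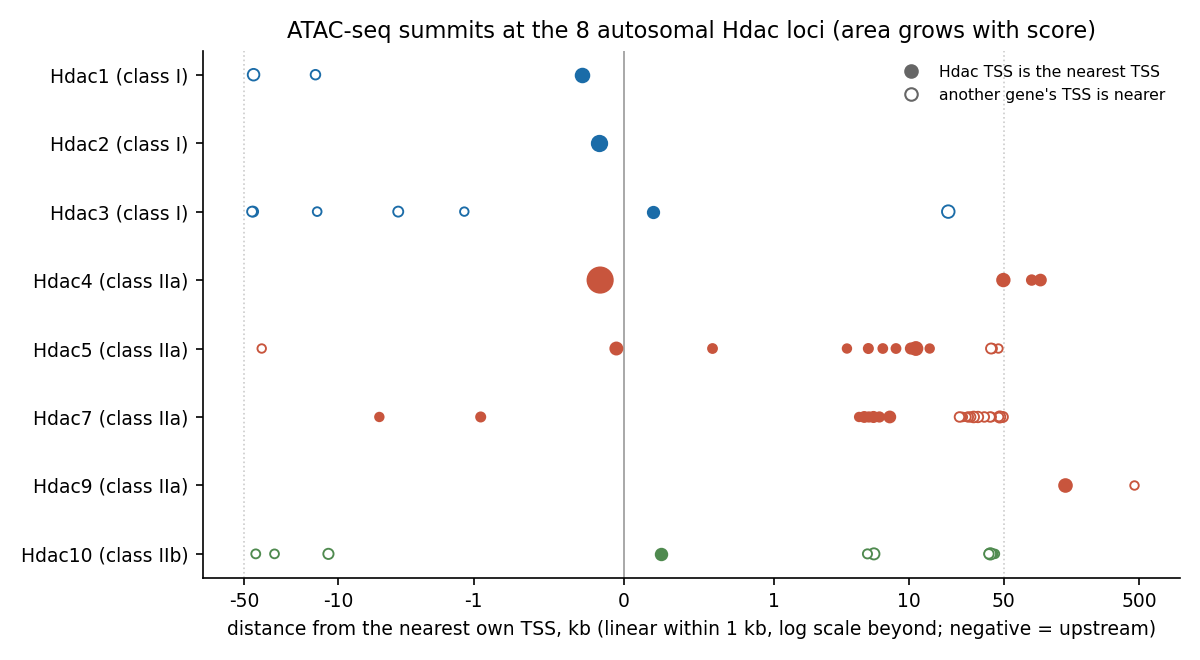
Each point is a summit at 1 of the 8 autosomal Hdac loci, placed by its distance in kb from the nearest TSS of that gene (linear within 1 kb, log scale beyond, negative upstream), with an area that grows with its score and a filled mark where the Hdac TSS is the nearest of any gene. The largest point is the Hdac4 promoter summit (61.5), Hdac5 and Hdac7 hold rows of small points downstream of a TSS, and Hdac9 has no point within 1 kb.

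The number of summits per locus differed widely between members. The median over the 8 loci was 5.50, beside 2 (quartiles 0 and 5) over all autosomal genes. The order was Hdac7 (22), Hdac5 (13), Hdac10 (10), Hdac3 (7), Hdac4 (4), Hdac1 (3), Hdac9 (2) and Hdac2 (1). Summits were found in the gene body of 6 of the 8 genes, beside 41.2% of all autosomal genes. That share rises with length, from 32.8% under 20 kb to 48.2% at 20 to 100 kb and 61.4% at 100 kb and over. The 4 class IIa genes held 41 summits, 20 of them in gene bodies, while the 3 class I genes held 11, with 1 in a gene body, and Hdac10 held 10, with 2. The class IIa gene bodies are also the longest among the autosomal members. Within the class, Hdac9 (870 kb) and Hdac4 (252 kb) held 2 and 3 summits in the gene body. The shorter Hdac5 (34.4 kb) and Hdac7 (51.8 kb) held 8 and 7. Whether length bears on the counts was not tested.

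Many of these summits were nearer to another gene. Of the 62, 26 had the Hdac TSS as their nearest, and 36 (58.1%) lay nearer to the TSS of a neighbour. All 4 summits of the Hdac4 locus and the single one of Hdac2 were nearest to the member, against 1 of 10 for Hdac10 and 1 of 7 for Hdac3. By position, 37 lay in introns, 18 between genes and 7 in exons. Neither split was computed for the loci of all genes, so neither can be called particular to this family. Which gene a distant summit acts on was not tested.

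**Figure D3:**
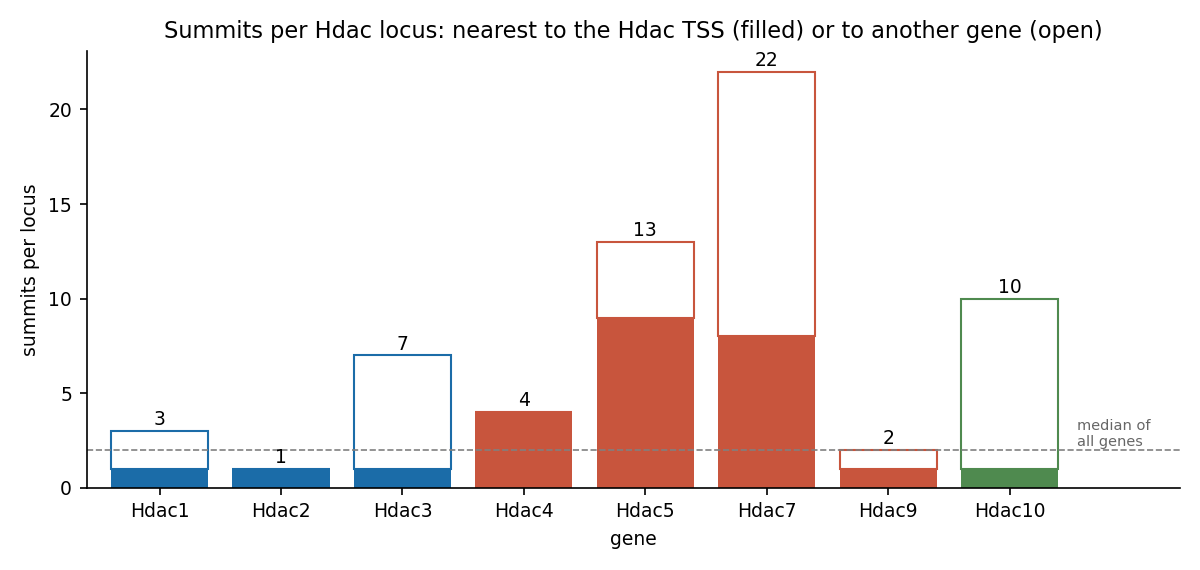
Bars give the number of summits at each autosomal Hdac locus (y axis), split into those nearest to the Hdac TSS (filled) and those nearer to another gene (open), with the median of all autosomal genes, 2, as a dashed line. Hdac7 has 22 summits with 8 nearest to it, Hdac5 has 13 with 9, and Hdac10 has 10 with 1.

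The 62 summits had a median score of 4.16 (quartiles 2.72 and 6.78, range 1.83 to 61.5), against 5.0 (quartiles 3.06 and 9.48) over all autosomal summits, and 7 (11.3%) scored at least 10, against 23.6%. Of the 62, 24 (38.7%) lay within 1 kb of a TSS of any gene, against 32.4% of all autosomal summits. Their median score was 5.31, against 8.65 for all such summits, and the median of the 38 farther away was 3.59, against 4.16. The 8 within 1 kb of an Hdac TSS had a median of 9.13. The scores of the list are coarse, with 2606 distinct values. Of the 62, 51 (82.3%) had a score that at least 100 summits share, against 66% of the whole list, and 9 stood at 2.15, a value that 1670 summits have. Summits with the same score cannot be ranked against each other. Around the edge of the 50-kb window of the autosomal members, and leaving out summits in gene bodies, such as that of Hdac4 at 49604 bp, the last 5 kb inside held 4 summits with scores of 2.15 to 7.58, and the next 5 kb outside held 7 with 2.92 to 23.1.

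The letters of 13 motifs were searched within 100 bp of each summit. Of the 8 promoter windows of the family, 2 held GGGCGG (Hdac4 and Hdac5), against 44.9% of all autosomal promoter windows, and 4 held CCAAT (Hdac3, Hdac4, Hdac5 and Hdac7), against 27.6%. The Hdac5 window also held TAAAAATA, found in 0.409% of all promoter windows, and CACGTG (E-box), found in 6.47%. TGANTCA (AP-1) was found in the window of Hdac3, against 3.69%. None of the 8 held CCGGAA (ETS), against 19.8%. Of the other 54 windows, 12 held CCAAT, 8 held GGGCGG and 6 held TTGGCA, shares of 22.2%, 14.8% and 11.1% beside 23.1%, 8.84% and 12.8% over all windows more than 1 kb from any TSS. Of these 54, 16 lay within 1 kb of the TSS of another gene, so that the sets differ in make-up. The Hdac7 intronic sequence printed above holds TTGGCA on the opposite strand at 2 places. Such matches describe the letters only and show no bound factor. The median GC content was 58.2% in the 8 promoter windows and 62.2% over all promoter windows.

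The partners of these enzymes were read from lists of genes fixed by symbol. All 9 Sin3 subunits had a promoter summit, with scores from 2.09 to 97.1, the highest at the scaffold Sin3a. Of 10 autosomal NuRD subunits 8 did, led by Gatad2a (84.1), and Chd3 and Mta1 did not. For CoREST the count was 4 of 6, led by Hmg20b (16.7), without the demethylase Kdm1a and Phf21a. Sin3 subunits had a median promoter score of 31.7, NuRD subunits of 21.6 and CoREST subunits of 13.5. Over all autosomal genes 46.8% had a promoter summit, and the median score of those was 10.9. With a score of at least 10 the counts were 5 of 9, 6 of 10 and 3 of 6, beside 24.5% of all autosomal genes.

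For the proteins that hold or move class IIa enzymes, all 7 genes of 14-3-3 proteins had a promoter summit, led by Ywhaq (55.7). Of the 4 MEF2 factors, Mef2a (31.7) and Mef2d (20.6) had one and Mef2b and Mef2c had none. Of the 11 kinases 4 had one, led by Camk2d (29.3), and all 3 SIK genes were among those 4. Of the opposing enzymes, 9 of 12 histone acetyltransferases had a promoter summit, led by Kat6b (90.5), without Crebbp, Kat2a and Kat2b, and their median promoter score was 6.02. All 7 sirtuins, the NAD-dependent deacetylases, had one, led by Sirt2 (30.9), with a median of 9.21. The medians were 14 for 14-3-3 proteins, 26.1 for MEF2 factors and 18 for the kinases. Over all autosomal genes 46.8% had a promoter summit, and the median score of those was 10.9. The order of the lists depends on the score minimum, and with so few genes per list it was not tested. With a promoter score of at least 10, 3 of 11 kinases (27.3%) and 2 of 12 acetyltransferases (16.7%) remained, beside 24.5% of all autosomal genes. Hdac11, the class IV enzyme, had none, and its nearest summit lay 39881 bp upstream with a score of 6.02.

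**Figure D4:**
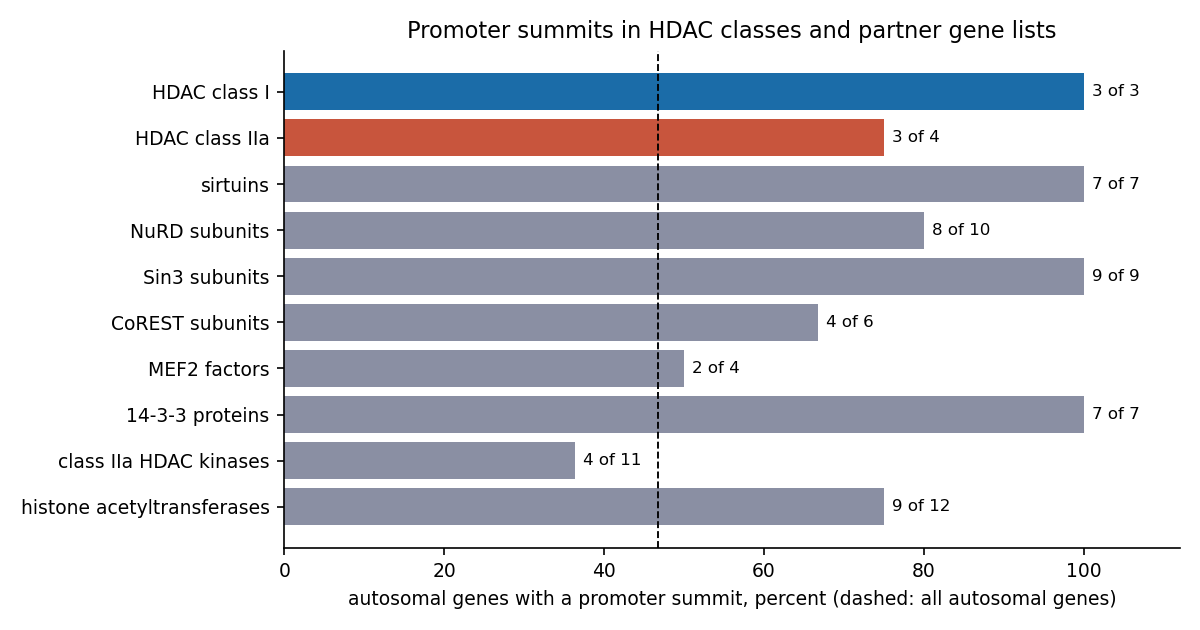
Bars give the percent of autosomal genes of each list that have a summit within 1 kb of a TSS, with the counts beside them and the share of all autosomal genes, 46.8%, as a dashed line. The kinases of class IIa enzymes (4 of 11) lie under the line and the other lists drawn above it when summits of any score count. With a score of at least 10, 3 of 11 kinases (27.3%) and 2 of 12 acetyltransferases (16.7%) remained, beside 24.5% of all genes. With so few genes per list, no list was tested against either share.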

How the data were processed

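ATAC-seq was performed by the authors on nuclei of BAT from 2 mice of each genotype, each processed separately. Partek Flow was used to align reads to mm10 (BWA) and to call peaks with MACS2 (2.1.1 in the submitters' processing notes) in its ATAC mode, with cutoffs on q-value and fold enrichment. The deposited list gives each summit the −log10 of its q-value, here the score, and the lowest was 1.31, a q-value of 0.0493. How that mode shifted reads for the transposase is not given in the sources used here. Read depth is unknown, and the RNA-seq libraries were not analysed here.

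Summits were placed on the RefSeq annotation of GRCm38 by curated mRNAs of 21000 genes, 20021 of them autosomal. A gene body is the span of its curated mRNAs. Counts were set beside those of all genes, with no test. All members were named, with the highest-scoring gene of each list, up to 5 genes without a promoter summit, and the neighbours nearest to top summits. Mef2d, the SIK genes and the Hdac7 neighbour Slc48a1 were added after their values were seen, and the tissue markers after the files were in hand. The subunits of one corepressor complex are not reported here. Members and lists were chosen with earlier results of these data known. Alternatives changed the score minimum, the windows, the merging of summits and the transcripts. Counting was tested on simulated summits. Python 3.11.15, pandas 2.3.3, numpy 2.4.6 and pysam 0.24.0 were used.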

Additional observations from a re-analysis of the deposited data

How the results depend on the processing

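The list has no value per library, so no replicate could be left out in turn. No paired analysis was possible because no result comes from a test and the list carries no replicate numbers for its scores. The libraries are numbered in the name of the list, but no score belongs to a single library. The 62 summits at the autosomal loci became 25 with a score of at least 5, 7 with a score of at least 10, 31 with 10 kb and the gene body, 23 in the gene body only, and 26 by the nearest TSS. Merging summits within 500 bp left 62, and predicted mRNAs gave 64. The 7 genes with a promoter summit became 3 with a score of at least 10, and stayed between 5 and 7 under the other 5 alternatives. Hdac7 was lost with a score of at least 5 and with a promoter of 500 bp, and Hdac3 and Hdac10 were lost with 1 kb upstream to 100 bp downstream. Hdac9 gained a promoter summit under none of these 6 alternatives. The 23 gene-body summits became 10 with a score of at least 5 and 3 with at least 10, where Hdac5 fell from 8 to 2 and 1 and Hdac7 from 7 to 3 and 0. The median promoter score of 9.78 moved to 11.9 with a promoter of 500 bp, since Hdac7 dropped out, and the Hdac7 promoter score of 3.32 moved to 5.07 with 5 kb and 7.05 with predicted mRNAs. Of 66 autosomal partner genes 50 had a promoter summit, beside 46.8% of all autosomal genes. With a score of at least 10, an alternative chosen after seeing the data, 29 had one, beside 24.5%. The sirtuins went from 7 to 3, the Sin3 subunits from 9 to 5 and the acetyltransferases from 9 to 2. The counts of summits thus rest on the score minimum and the window, and the promoter score of Hdac4 was 61.5 with each promoter window tried.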
